A study of Mus musculus with 6 samples.

Results

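The genes described here are 7 regulators of fetal blood formation and of globin switching: Lin28b, Hmga2, Igf2bp1, Igf2bp2 and Igf2bp3 of the fetal program, and the globin repressors Bcl11a and Sox6. They were picked by symbol, with earlier results of these data known, from the 37620 Ensembl genes of the deposited count tables, and all 7 were found by identifier and passed the filter on low counts. The cells were burst-forming unit erythroid progenitors (BFU-E), which precede the recognisable red cell precursors, sorted from livers of 129/SvImJ mouse embryos at E14.5. The 3 groups, with 2 libraries each, were cells given 100 nM dexamethasone (Dex, a synthetic glucocorticoid) and 10 µM GW7647 (an agonist of the nuclear receptor PPARα), cells given 100 nM Dex, and untreated cells. Cells had been depleted of lineage, Sca-1, CD16/32, CD41 and CD34 positive cells and taken as c-kit positive with the 10% lowest CD71. The serum-free medium contained SCF (100 ng/mL), IGF-1 (40 ng/mL) and Epo (2 U/mL). The labels can be read as placing untreated cells in it or as taking them fresh. If they were fresh, drug and time in culture cannot be told apart in any comparison with untreated cells. Rises and falls with Dex or both drugs against untreated are therefore differences between groups, not effects credited to a drug. The sample labels give 12 h of treatment, the column headers of 1 of the tables carry 36 h, which the values do not settle. GW7647 was not given alone to any of these groups, the labels do not say whether embryos were pooled, and p-values measure the spread between 2 libraries a group, which may be technical.

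In blood formation, LIN28B is an RNA-binding protein that blocks the maturation of let-7 microRNAs, and let-7 in turn represses Lin28b, Hmga2 and the Igf2bp genes, so that fetal progenitors hold LIN28B and its downstream genes high and adult progenitors hold let-7 high. HMGA2 is a chromatin protein that binds AT-rich DNA and supports self-renewal of mouse fetal stem cells, and the IGF2BP proteins bind and stabilise messenger RNAs. BCL11A, a zinc finger protein, and SOX6, a protein of the SoxD group, repress embryonic globin genes in mice and fetal globin in humans.

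The let-7 microRNAs and their seed matches are shown first because they are the sequence feature that links the fetal program genes. These genes were picked as members of a program known to be repressed by let-7. Matches in them were therefore to be foreseen, and the shares among other genes below are a description, not a test. Of the 10 mature let-7 microRNAs in RefSeq (GRCm38.p6), 9 share the seed GAGGUAG at bases 2 to 8 and let-7j has GAGGUAU. The seed is in capitals in these 3 examples.
let-7a-5p: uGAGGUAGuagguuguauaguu
let-7g-5p: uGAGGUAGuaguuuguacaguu
let-7j: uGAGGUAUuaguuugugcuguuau

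The complement of the common seed, CTACCTC, was searched on the transcript strand of the longest annotated 3′ UTR of each gene (GENCODE M21, GRCm38). Lin28b, Hmga2 and Igf2bp1 held 4 matches each, Igf2bp2 and Igf2bp3 held 1 each, and Bcl11a and Sox6 held 0. Of the 3′ UTRs of 12072 tested genes, 10.7% held at least 1. Among UTRs within 25% of the same length, the share was 24.8% for Lin28b, 16.9% for Hmga2, 34.5% for Igf2bp1, 12.3% for Igf2bp2, 13.8% for Igf2bp3, 18.1% for Bcl11a and 32.8% for Sox6. A match is a description of the letters, and which 3′ ends these cells used was not measured. The sites below show all 4 of Hmga2, the gene that differed most on addition of GW7647, and the match nearest the stop codon in the other genes that have one, each as 30 bases with the match in capitals. All lie on the minus strand.
Hmga2, chr10:120364218-120364247: cgccgacattcaatttCTACCTCagcatca
Hmga2, chr10:120362981-120363010: tccccactcctcaataCTACCTCtgaatgc
Hmga2, chr10:120362543-120362572: cctgatttgcaaggaaCTACCTCcacactt
Hmga2, chr10:120361685-120361714: caatcaaaacacactaCTACCTCttaagtc
Lin28b, chr10:45381016-45381045: cacccgggcgggaagtCTACCTCatgcaag
Igf2bp1, chr11:95961772-95961801: tgctgtgcgaagtaaaCTACCTCaaggtgt
Igf2bp2, chr16:22059467-22059496: aacacacaaataaaagCTACCTCaggtgtt
Igf2bp3, chr6:49086781-49086810: gtgcatttttactcaaCTACCTCaggtatt

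**Figure D1:**
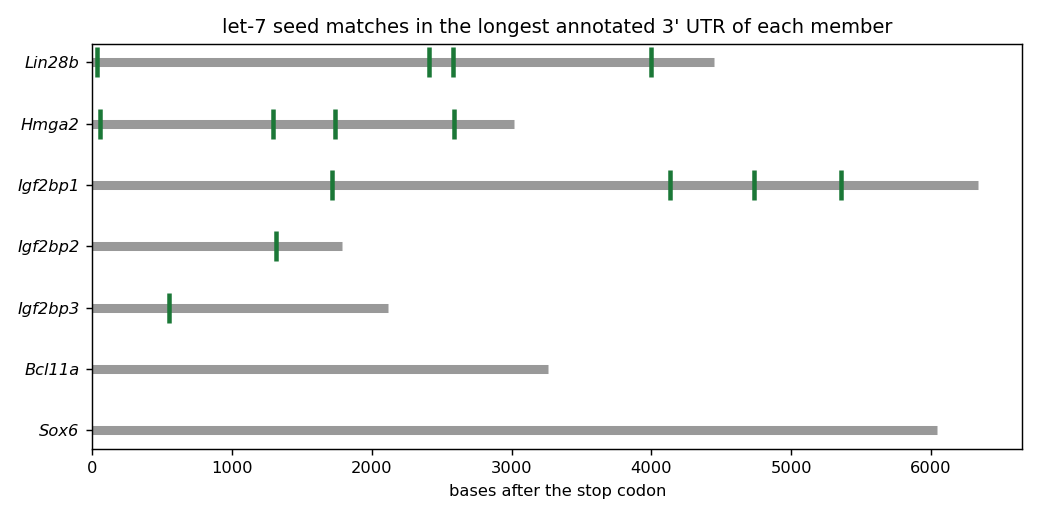
Positions of the 7-base let-7 seed match (green ticks) in the longest annotated 3′ UTR of each gene (grey bars), in bases after the stop codon. Lin28b, Hmga2 and Igf2bp1 each carry 4 ticks, Igf2bp2 and Igf2bp3 carry 1, and the globin repressors Bcl11a and Sox6 carry 0.

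The libraries held between 35970286 and 54174801 counts, and 14125 genes were tested together with edgeR. Erythroid progenitor markers were all present, with summed levels of 3607 to 3613 CPM (counts scaled to library size) with Dex plus GW7647, 3486 to 3598 with Dex and 5037 to 5120 in untreated cells. With Dex against untreated, 2 of these 8 markers were higher and 4 lower, and with both drugs against untreated 1 was higher and 5 lower. Markers of other cells were also present. With Dex, 8 of 10 granulocyte and 7 of 8 megakaryocyte markers were lower than in untreated cells and none was higher, while 3 of 8 mast cell markers were higher and 4 lower. Mast cell markers, which share Gata2 with the erythroid list, summed to 371.0 to 385.9 CPM with Dex, against 262.0 to 269.2 in untreated cells. Hepatoblast markers summed to 5.42 to 5.93 CPM with Dex plus GW7647, 7.78 to 8.70 with Dex and 3.33 to 3.63 in untreated cells, and 3 of 10 were higher and 0 lower with Dex. Macrophage markers summed to 6.823 to 6.995, 8.30 to 8.88 and 9.38 to 9.65 CPM in the same groups, with 6 of 7 detected and C1qa at 0. With GW7647 added, 9 of 10 granulocyte, 7 of 8 megakaryocyte and 7 of 8 mast cell markers were lower than with Dex. Of 7 macrophage, 10 endothelial or stromal, 10 hepatoblast and 8 lymphoid markers, 3, 5, 6 and 2 passed the filter, and 1, 3, 2 and 0 of these were lower with GW7647 added. Among all tested genes, 25.5% were higher and 26.0% lower with Dex against untreated. The shares were 2.15% and 7.58% with GW7647 added to Dex, and 24.7% and 25.1% with both drugs against untreated.

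Per kilobase of exon (union of annotated exons, GRCm38, which may differ from the exons the authors counted), Bcl11a and Lin28b were the most abundant of the 7 genes and Igf2bp2 the least in every group. With Dex plus GW7647 the levels were 11.9 ± 0.0716 CPM per kilobase for Lin28b, 10.3 ± 0.00480 for Bcl11a, 4.94 ± 0.0933 for Igf2bp1, 3.69 ± 0.0490 for Igf2bp3, 3.39 ± 0.297 for Sox6, 0.962 ± 0.00777 for Hmga2 and 0.907 ± 0.0967 for Igf2bp2 (SD, n = 2). Hmga2 and Igf2bp2 overlapped in that order and the other neighbours did not. With Dex the order was the same, with Igf2bp3 at 3.86 ± 0.0607 and Sox6 at 3.84 ± 0.117 overlapping. In untreated cells Bcl11a, at 11.9 ± 0.568, stood above Lin28b, at 11.1 ± 0.184, Sox6 came next at 6.37 ± 0.257, and no neighbours overlapped. Among tested genes with a known length, the level of Lin28b lay at percentile 66.2 to 67.3 over the groups, and Hmga2 between 26.6 and 30.8. Lin28b thus stood above most tested genes in all 3 groups, whereas its relative Lin28a had 5 to 20 raw counts per library.

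With Dex against untreated, 4 of the 7 genes were called (adjusted p under 0.05), Igf2bp1 and Igf2bp2 higher and Bcl11a and Sox6 lower. Of all 14125 tested genes, 51.6% were called, 25.5% higher and 26.0% lower, so the count of members is near the background. With GW7647 added to Dex, Hmga2 was called lower and the other 6 genes were not called, against 9.73% of all tested genes called, 2.15% higher and 7.58% lower. With Dex plus GW7647 against untreated, Igf2bp1 was higher and Hmga2, Bcl11a and Sox6 lower, against a background of 49.7% called, 24.7% higher and 25.1% lower. The 3 comparisons share libraries, so they are not independent of one another.

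**Figure D2:**
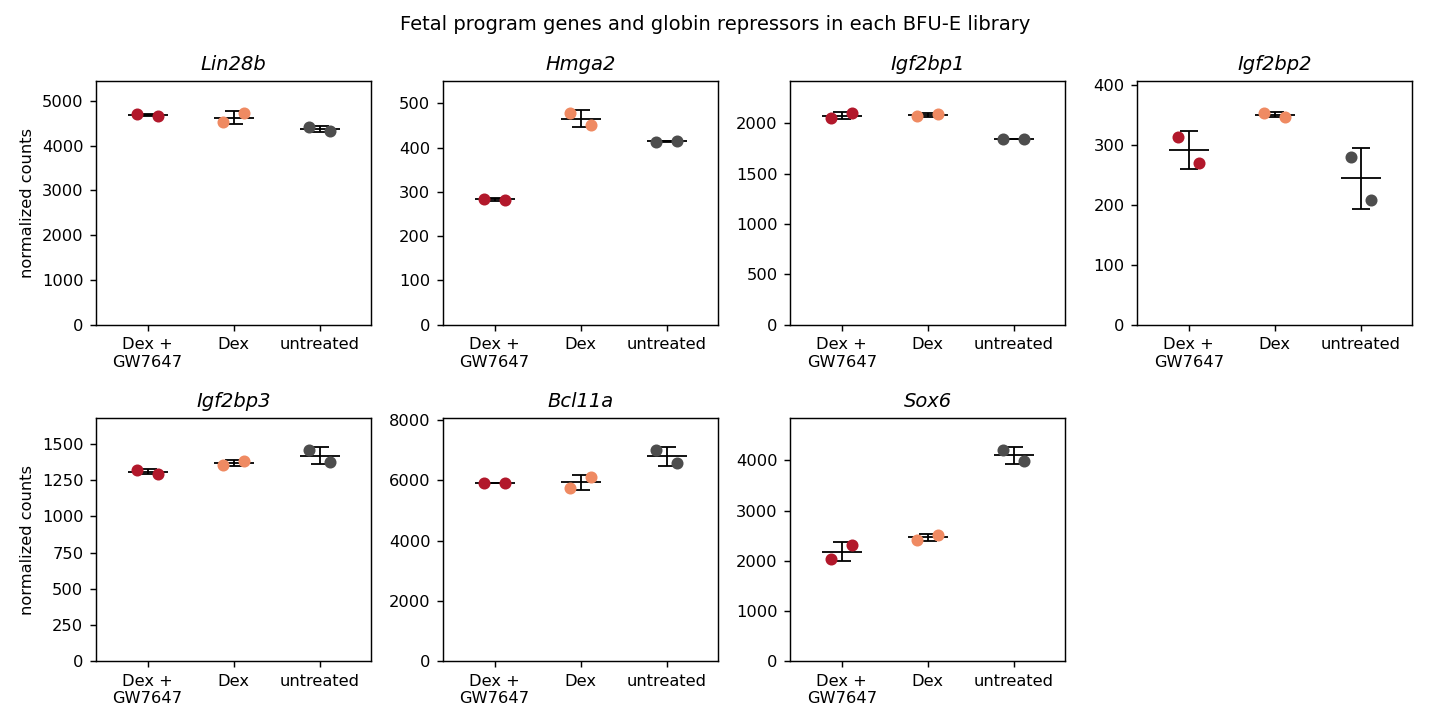
Normalized counts of each gene in each library (points), with the group mean and SD (bars, n = 2), for Dex plus GW7647, Dex and untreated cells, each axis starting at 0. Hmga2 stands apart with Dex plus GW7647 and Sox6 in untreated cells, while Lin28b and Igf2bp3 differ little between groups.

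Hmga2 (ENSMUSG00000056758, GRCm38 chr10:120361275-120476469) had 284.3 and 281.1 normalized counts with Dex plus GW7647, 478.4 and 451.0 with Dex, and 413.2 and 415.1 in untreated cells. Both libraries with GW7647 lay below all 4 others, and the Dex libraries lay above the untreated ones. Hmga2 fell by 0.72 ± 0.08 (SE) on the log2 scale when GW7647 was added to Dex, to 0.608 of the Dex level (edgeR quasi-likelihood test, adjusted p = 0.000565), and the call held in all 14 other fits. Against untreated cells it fell by 0.55 ± 0.09 with both drugs (adjusted p = 0.000505), again in all 14 other fits. With Dex alone against untreated, the difference was 0.17 ± 0.08 and was not called (adjusted p = 0.116), except with total count scaling (adjusted p = 0.0118). The authors' deposited table gives the ratio the other way round, 1.64 for Dex over Dex plus GW7647, with an adjusted p of 4.36e-06.

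Measurements of other kinds moved beside Hmga2 on addition of GW7647. Summed granulocyte markers were at 102 to 104.5 CPM with Dex plus GW7647, 165.3 to 172.7 with Dex and 348.0 to 371.8 in untreated cells. Megakaryocyte markers were at 267.8 to 272.2, 375.8 to 411.8 and 842.0 to 886.5 in the same groups. Mast cell markers were at 249.1 to 258.5, 371.0 to 385.9 and 262.0 to 269.2. The granulocyte and megakaryocyte sums were thus also lower with Dex alone than in untreated cells, a comparison in which Hmga2 was not called. The mast cell sum was higher there, although 3 of 8 mast cell markers were higher and 4 lower. Most counts of the mast cell list came from Hdc and from Gata2, which is also on the erythroid list. The part of the granulocyte, megakaryocyte and mast cell markers in the fall of Hmga2 was not tested. In bulk libraries, fewer cells of a type and less RNA per cell cannot be told apart. The gene 1700006J14Rik, which overlaps 140 exonic bases of Hmga2 on the opposite strand, had 572.2 and 504.3 normalized counts with both drugs, 719.9 and 875.7 with Dex, and 245.7 and 210.4 in untreated cells. It rose by 1.80 with Dex on the log2 scale (edgeR adjusted p = 1.53e-06) and fell by 0.56 on addition of GW7647 (adjusted p = 0.011, held in 13 of 14 other fits). The strand setting of the counting is not given in the sources used here, so reads in the shared bases cannot be told apart. The relative Hmga1, a chromatin protein of the same family, moved in the opposite direction on addition of GW7647. It had 6557 and 7070 normalized counts with Dex plus GW7647, 5474 and 5980 with Dex, and 8817 and 9395 in untreated cells, a difference of 0.25 ± 0.06 from Dex (adjusted p = 0.0305, called in 11 of 14 other fits) and a difference of -0.67 ± 0.06 with Dex against untreated (adjusted p = 1.05e-05).

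Lin28b (ENSMUSG00000063804, chr10:45376620-45486395) had 4706 and 4666 normalized counts with Dex plus GW7647, 4517 and 4731 with Dex, and 4424 and 4322 in untreated cells. The treated libraries were all slightly above the untreated ones, and the treated groups overlapped each other. None of the differences was called, and their 95% intervals on the log2 scale ran from -0.03 to 0.19 for Dex against untreated, from -0.09 to 0.13 for the addition of GW7647 and from -0.01 to 0.21 for both drugs against untreated. With total count scaling, which moves the median difference of all tested genes to 0.14 in both comparisons with untreated cells, against 0.01 and 0.02 with TMM, Lin28b was called higher with Dex (0.21, adjusted p = 0.00343) and with both drugs (0.22, adjusted p = 0.00271). Its relative Lin28a, with far fewer reads and named after its values were seen, had 8.12 and 5.91 normalized counts with both drugs, 14.7 and 16.9 with Dex, and 24.4 and 19.7 in untreated cells. Lin28a fell by 1.60 ± 0.38 with both drugs against untreated (edgeR adjusted p = 0.00599, lost in 1 of 13 other fits).

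The Igf2bp genes did not move as a group. Igf2bp1 (ENSMUSG00000013415, chr11:95957163-96005940), the member best known for raising fetal globin when expressed in adult human erythroblasts, had 2048 and 2103 normalized counts with Dex plus GW7647, 2068 and 2096 with Dex, and 1847 and 1845 in untreated cells. All 4 treated libraries were above both untreated ones and the treated groups overlapped. Igf2bp1 rose by 0.17 ± 0.05 with Dex (edgeR adjusted p = 0.0131) and by 0.17 ± 0.05 with both drugs against untreated (adjusted p = 0.0161), a difference of 1.13 and 1.12 times. These calls were lost under DESeq2 (adjusted p = 0.0615 and 0.0831) and without untreated replicate 1 (0.0541 and 0.0614) or 2 (0.0582 and 0.0665), and the call with both drugs also without replicate 1 (0.0665) or 2 (0.128) of Dex plus GW7647.

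Igf2bp2 (ENSMUSG00000033581, chr16:22059009-22163299), the family member most widely kept in adult tissues, had 313.2 and 269.3 normalized counts with Dex plus GW7647, 353.4 and 346.9 with Dex, and 280.0 and 208.1 in untreated cells. The Dex libraries were above all others, and the groups with both drugs and without drug overlapped. Igf2bp2 rose by 0.52 ± 0.14 on the log2 scale with Dex, to 1.44 times the untreated level (adjusted p = 0.0102). Leaving out replicate 2 of the untreated cells took the difference to 0.32 and ended the call (adjusted p = 0.0837). Its difference was -0.26 ± 0.13 on addition of GW7647 (adjusted p = 0.271) and 0.26 ± 0.14 with both drugs against untreated (adjusted p = 0.156). That last difference turned on single libraries. It was 0.49 without untreated replicate 1 (adjusted p = 0.0224), 0.06 when untreated replicate 2 was dropped (adjusted p = 0.752), and 0.15 when replicate 1 of Dex plus GW7647 was dropped (adjusted p = 0.559). It was called with total count scaling (adjusted p = 0.0441).

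Igf2bp3 (ENSMUSG00000029814, chr6:49085223-49214957), an RNA-binding protein of fetal progenitors, had 1318 and 1293 normalized counts with both drugs, 1353 and 1383 with Dex, and 1460 and 1376 in untreated cells. The 2 libraries with both drugs were the lowest, and Dex and untreated libraries overlapped. No difference was called, the largest being -0.12 ± 0.06 with both drugs against untreated (edgeR adjusted p = 0.11), and with total count scaling that difference was 0.00 and the one for Dex against untreated turned to 0.08 (adjusted p = 0.261). Malsu1, on the opposite strand, shares 1529 exonic bases with Igf2bp3, the longest such overlap among the 7 genes, and was itself higher with both drugs than in untreated cells (0.25, adjusted p = 0.031). Per kilobase, Igf2bp2 made up 10.2% and 8.83% of the family sum with both drugs, 11.2% and 10.8% with Dex, and 9.28% and 7.26% in untreated cells, while Igf2bp3 made up 38.9% and 38.5%, 38.8% and 39.2%, and 43.9% and 43.5% in the same groups.

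**Figure D3:**
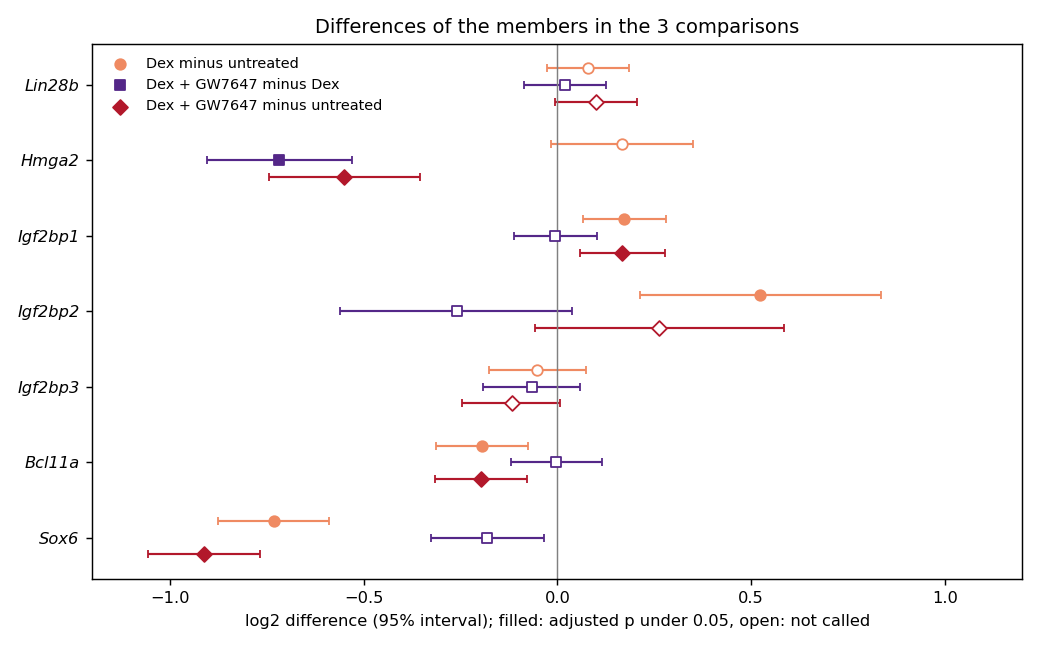
Log2 differences of the 7 genes in the 3 comparisons, with 95% intervals from the edgeR fit; filled symbols passed an adjusted p of 0.05. Sox6 lies at -0.73 with Dex and -0.91 with both drugs against untreated, and Hmga2 at -0.72 on addition of GW7647, while the intervals of Lin28b and Igf2bp3 include 0 throughout.

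Sox6 (ENSMUSG00000051910, chr7:115470872-116038796), which silences the embryonic globin gene Hbb-y in mice, had the largest differences from untreated cells of the 7 genes. It had 2047 and 2317 normalized counts with Dex plus GW7647, 2417 and 2523 with Dex, and 4218 and 3983 in untreated cells. The untreated libraries lay far above all treated ones, and both libraries with GW7647 lay below both with Dex. Sox6 fell by 0.73 ± 0.06 on the log2 scale with Dex, to 0.602 of the untreated level (edgeR adjusted p = 7.51e-06), and by 0.91 ± 0.06 with both drugs, to 0.531 (adjusted p = 2e-06), and both calls held in all 14 other fits. On addition of GW7647 the difference was -0.18 ± 0.06 and was not called (adjusted p = 0.119), though it passed when no filter on low counts was applied, at adjusted p = 0.0282. It rested in part on replicate 1 of Dex plus GW7647, without which the difference was -0.09 (adjusted p = 0.614), and over all 14 other fits the adjusted p ran from 0.0216 to 0.614. The authors' deposited table gives a ratio of 0.531 for Dex plus GW7647 over untreated, with an adjusted p of 4.8e-26.

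Of 5 relatives of the 7 genes (Lin28a, Hmga1, Bcl11b, Sox5 and Sox13), 4 were tested, and 1 was higher and 2 lower with Dex (median -0.58, against 0.01 for all tested genes). The SoxD relatives Sox5 and Sox13 moved in opposite directions at much lower counts. Sox13 had 29.8 and 31.9 normalized counts with both drugs, 30.9 and 42.2 with Dex, and 166.3 and 198.9 in untreated cells, a difference of -2.33 ± 0.19 with Dex (edgeR adjusted p = 4.95e-06). Sox5 had 53.2 and 66.1 with both drugs, 73.3 and 76.9 with Dex, and 28.1 and 20.8 in untreated cells, a difference of 1.62 ± 0.23 with Dex (adjusted p = 0.00023). Neither was called on addition of GW7647. Globin transcripts moved beside Sox6, at 2.75% to 2.82% of counts with both drugs and 2.96% to 3.12% with Dex, against 6.48% to 7.15% in untreated cells, and so did the summed erythroid markers, of which 2 of 8 were higher and 4 lower with Dex. Summed granulocyte markers were at 165.3 to 172.7 CPM with Dex, against 348.0 to 371.8 in untreated cells, and megakaryocyte markers at 375.8 to 411.8, against 842.0 to 886.5. Their part in the differences of Sox6 and Bcl11a from untreated cells was not tested.

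Bcl11a (ENSMUSG00000000861, chr11:24078056-24174123) had 5914 and 5910 normalized counts with Dex plus GW7647, 5743 and 6104 with Dex, and 7010 and 6551 in untreated cells. Both untreated libraries lay above all 4 treated ones, and the treated groups overlapped. Bcl11a fell by 0.20 ± 0.05 with Dex (edgeR adjusted p = 0.011) and by 0.20 ± 0.05 with both drugs (adjusted p = 0.0109), to 0.874 and 0.872 of the untreated level, and the difference on addition of GW7647 was -0.003 with a 95% interval of -0.12 to 0.115. Both calls were lost with total count scaling (differences of -0.07 and -0.08, adjusted p = 0.305 and 0.222) and without untreated replicate 1 (-0.14 and -0.15, adjusted p = 0.0912 and 0.0892). Leaving out Dex replicate 1 also ended the call for Dex (adjusted p = 0.0548). The call for both drugs ended when either library with GW7647 was left out, at adjusted p = 0.074 for replicate 1 and 0.0766 for replicate 2. For Dex plus GW7647 over untreated, the authors' deposited table gives ratios of 0.870 for Bcl11a (adjusted p = 0.003424), 0.681 for Hmga2 (adjusted p = 0.0001915) and 1.12 for Igf2bp1 (adjusted p = 0.08249). The relative Bcl11b had at most 1 raw count in any library and was not tested.

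The globin genes, of which BCL11A and SOX6 repress embryonic ones in mice, went in both directions. Hbb-y, the embryonic beta-like globin, had 330.3 and 341.3 normalized counts with both drugs, 776.2 and 692.9 with Dex, and 35.5 and 46.2 in untreated cells. It rose by 4.16 ± 0.14 with Dex against untreated (edgeR adjusted p = 1.08e-08) and fell by 1.13 ± 0.10 on addition of GW7647 (adjusted p = 7.04e-05), and its share of beta-like globin counts was 0.0376% and 0.0396% with both drugs, 0.0779% and 0.0714% with Dex, and 0.00155% and 0.00189% in untreated cells. Hbb-bh1, the other embryonic beta-like gene, fell by 0.72 ± 0.08 with Dex (adjusted p = 5.28e-05) and by 0.38 ± 0.09 on addition of GW7647 (adjusted p = 0.024, held in 8 of 14 other fits). Its share of beta-like globin counts was nevertheless higher in treated than in untreated cells. That share was 0.02914% and 0.03072% with both drugs, 0.03459% and 0.034% with Dex, and 0.02465% and 0.02235% in untreated cells. Hba-x, the embryonic alpha-like gene, had 24.4 and 34.2, 37.8 and 36.6, and 19.6 and 12.7 normalized counts with both drugs, with Dex and without drug. It was higher with Dex (1.21 ± 0.30, adjusted p = 0.00779, called in 11 of 13 other fits). All 4 adult genes, Hba-a1, Hba-a2, Hbb-bs and Hbb-bt, fell with Dex against untreated, with Hbb-bs at -1.17 and Hbb-bt at -1.39 on the log2 scale. Hbb-bt also fell by 0.36 ± 0.08 on addition of GW7647 (edgeR adjusted p = 0.0187, held in 12 of 14 other fits), and the other 3 adult genes were not called there. Reads of the near-identical pairs may be split between them.

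Other regulators of globin switching, from a list of 16 that were all tested, were higher for 4 and lower for 6 with Dex against untreated (median difference -0.07, against 0.01 for all tested genes). Nfia, a transcription factor of erythroid commitment, had 194.1 and 211.4 normalized counts with both drugs, 250.0 and 281.3 with Dex, and 37.9 and 27.8 in untreated cells, a difference of 3.01 ± 0.17 with Dex (edgeR adjusted p = 4.36e-07). Hic2, a repressor of BCL11A in human erythroid cells, had 1406 and 1476 with both drugs, 1353 and 1423 with Dex, and 636.9 and 651.0 in untreated cells, a difference of 1.11 ± 0.06 (adjusted p = 3.73e-07). Eif2ak1, the heme-regulated kinase HRI, whose loss lowers BCL11A in human erythroid cells, had 13200 and 13310 with both drugs, 13430 and 13920 with Dex, and 23250 and 22750 in untreated cells, a difference of -0.75 ± 0.04 (adjusted p = 5.04e-07). On addition of GW7647, 0 of the 16 were called by edgeR and 0 by DESeq2, with 2 at an unadjusted p under 0.05.

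Among 20 corepressor genes of the NuRD, LSD1, NCoR and related complexes through which BCL11A acts, 5 were higher and 7 lower with Dex (median 0.04, against 0.01 for all genes). The largest fall among those named was that of Bcor, a corepressor first found with BCL6, with 1784 and 1828 normalized counts with both drugs, 1620 and 1632 with Dex, and 2573 and 2523 in untreated cells (-0.65 ± 0.05 with Dex, edgeR adjusted p = 2.54e-06). Mta3, a NuRD subunit, fell by 0.37 ± 0.05 (adjusted p = 0.000206), and Rbbp7, a histone-binding subunit, rose by 0.25 ± 0.04 (adjusted p = 0.000873). On addition of GW7647, edgeR called 0 of the 20 and DESeq2 called 1, with 4 at an unadjusted p under 0.05.

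Genes of let-7 processing and action were called for 5 of 10 tested with Dex, 1 higher and 4 lower (median -0.04, against 0.01). Of all tested genes, 51.6% were called with Dex, 25.5% higher and 26.0% lower. Tut4 is a uridylyl transferase that acts on let-7 precursors. It had 2117 and 2179 normalized counts with both drugs, 2039 and 2190 with Dex, and 3263 and 3058 in untreated cells. Its difference with Dex was -0.58 ± 0.06 (edgeR adjusted p = 1.57e-05). Dgcr8, the partner of Drosha in cutting primary microRNAs, fell by 0.36 ± 0.05 (adjusted p = 0.000315). Zswim8, part of a ubiquitin ligase in microRNA decay, had 3052 and 3025 with both drugs, 3140 and 2987 with Dex, and 2025 and 2121 in untreated cells, a difference of 0.56 ± 0.05 (adjusted p = 9.34e-06). Ago1, an Argonaute protein, was called with both drugs against untreated (0.23 ± 0.05, adjusted p = 0.00226). On addition of GW7647, 0 of the 10 were called by edgeR and 0 by DESeq2, with 4 at an unadjusted p under 0.05. Mature let-7 was not measured in these polyA libraries, and the 9 let-7 precursor genes in the tables had 0 counts in every library, which allows up to 3 counts a library.

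Of 15 other well-known let-7 targets, 3 were higher and 7 lower with Dex (median -0.02, against 0.01), and 2 were lower with GW7647 added. Mycn, a proto-oncogene of the MYC family, had 50.5 and 63.8 normalized counts with both drugs, 103.4 and 92.8 with Dex, and 336.2 and 344.6 in untreated cells. It fell by 1.79 ± 0.13 with Dex (edgeR adjusted p = 2.54e-06) and by 0.80 ± 0.16 on addition of GW7647 (adjusted p = 0.0133, held in 12 of 14 other fits). Igf1r, the receptor for the growth factor in the medium, rose by 0.93 ± 0.06 with Dex (adjusted p = 8.53e-07).

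**Figure D4:**
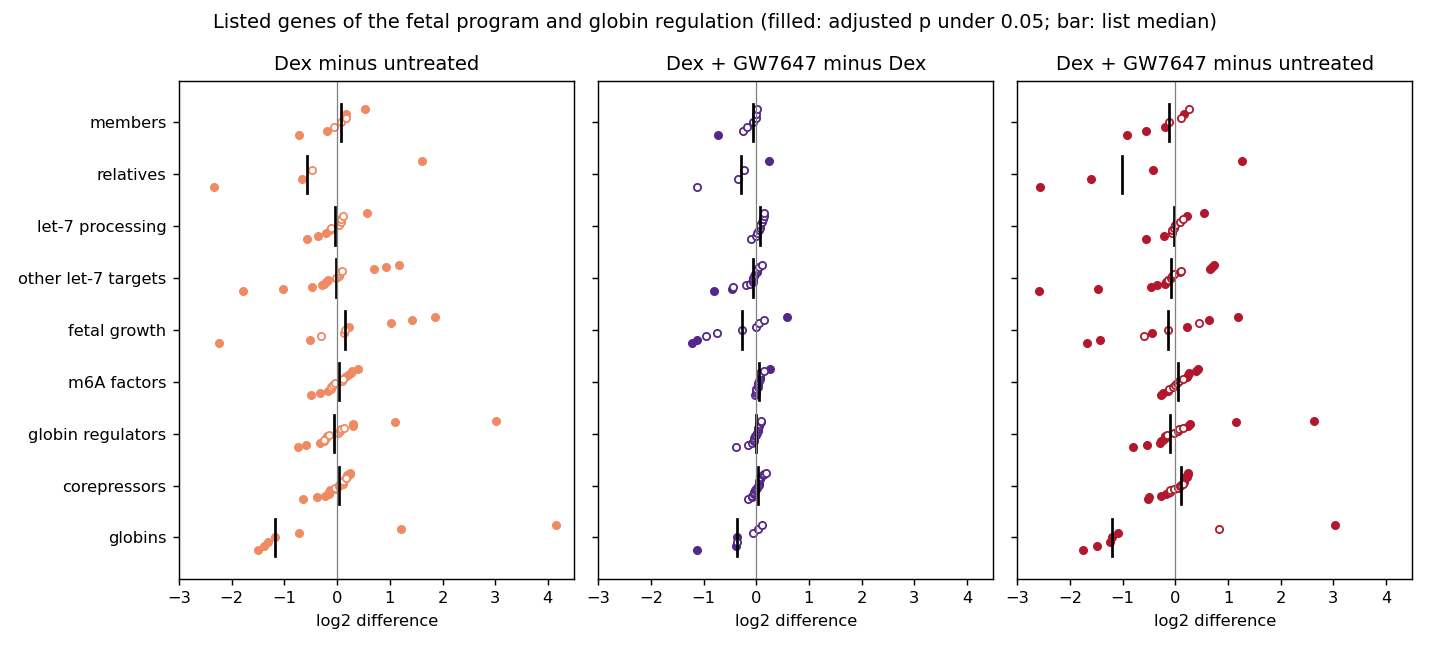
Log2 differences of every tested gene of the lists (points; filled where the adjusted p was under 0.05) with the list median (bar), for Dex minus untreated, Dex plus GW7647 minus Dex, and Dex plus GW7647 minus untreated. Lists spread to both sides of 0 with Dex, with Hbb-y at 4.16 and Nfia at 3.01 the points farthest to the right, and lie closer to 0 on addition of GW7647.

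Imprinted and other fetal growth genes were tested for 9 of 11, with 4 higher and 2 lower with Dex (median 0.15, against 0.01) and 1 higher and 2 lower on addition of GW7647. Igf2, from which the IGF2BP proteins take their name, had 0 to 5 raw counts per library and was not tested. Peg3, an imprinted zinc finger gene, had 413.4 and 453.5 normalized counts with both drugs, 289.3 and 289.7 with Dex, and 1402 and 1351 in untreated cells, a difference of -2.25 ± 0.07 with Dex (edgeR adjusted p = 1.15e-08) and a difference of 0.58 ± 0.08 on addition of GW7647 (adjusted p = 0.00146). Cdkn1c, the cell cycle inhibitor p57, had 49.6 and 40.2 with both drugs, 111.1 and 100.3 with Dex, and 28.1 and 30.1 in untreated cells, a difference of 1.86 ± 0.20 with Dex (adjusted p = 3.26e-05) and a difference of -1.22 ± 0.18 on addition of GW7647 (adjusted p = 0.00193). Igf2r, which takes up and clears IGF2, rose by 1.03 ± 0.05 with Dex (adjusted p = 1.85e-07), and Grb10, an adaptor that restrains growth factor receptors, by 0.23 ± 0.05 (adjusted p = 0.00199). Dlk1, a Notch-related surface protein that hepatoblasts also make, fell by 1.13 ± 0.30 on addition of GW7647 (adjusted p = 0.0422), a call held in 6 of 13 other fits.

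Of 14 genes that write, erase or read N6-methyladenosine (m6A), the RNA mark that IGF2BP proteins bind, 5 were higher and 3 lower with Dex (median 0.03, against 0.01). Both core writers rose, Mettl3 by 0.26 ± 0.05 (edgeR adjusted p = 0.00148) and Mettl14 by 0.39 ± 0.06 (adjusted p = 0.000524). Ythdc2, an m6A-binding helicase, rose by 0.27 ± 0.05 (adjusted p = 0.00119), and the eraser Fto fell by 0.32 ± 0.05 (adjusted p = 0.000627). Rbm15, an adaptor of the writer complex, had 1169 and 1235 normalized counts with both drugs, 999.2 and 1013 with Dex, and 1450 and 1392 in untreated cells. It fell by 0.50 ± 0.06 with Dex (adjusted p = 6.08e-05) and was the only gene of this list called on addition of GW7647, a difference of 0.26 ± 0.06 (adjusted p = 0.0218, held in 9 of 14 other fits).

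With both drugs against untreated, 3 of 15 let-7 targets were higher and 6 lower, and 2 and 2 of 10 let-7 processing genes, 3 and 3 of 9 fetal growth genes, 5 and 3 of 14 m6A genes, 4 and 7 of 16 globin regulators and 8 and 5 of 20 corepressors, against 24.7% higher and 25.1% lower among all tested genes. For the counts of these lists given above, the shares among all tested genes were 25.5% higher and 26.0% lower with Dex. On addition of GW7647 they were 2.15% higher and 7.58% lower.

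The genes with the profile most like each member were found as the smallest distance between log2 CPM profiles over the 6 libraries, each centred on its mean, where the median distance of all other tested genes with a symbol was 0.43 to 1.07 depending on the member. Nearest to Hmga2 were Slc26a1 (distance 0.13), a sulfate transporter with a mean of 1292 normalized counts with both drugs, 2208 with Dex and 2054 in untreated cells, and Gria3 (0.14), a glutamate receptor subunit. Nearest to Sox6 were Ttll11 (0.10), a tubulin polyglutamylase, and Gm9844 (0.12). Lin28b lay nearest to Mapk9 (0.02) and Kansl1 (0.03), and Igf2bp1 to Utp15 (0.03) and Rnf216 (0.03). Igf2bp2 lay nearest to Zfp422-ps (0.12) and Pygm (0.15). Igf2bp3 lay nearest to Ubxn7 (0.03) and Rlim (0.04), and Bcl11a to Orc2 (0.04) and Syncrip (0.04). Raw counts per library were low for Zfp422-ps (6 to 18), Pygm (31 to 73) and Ttll11 (48 to 90), so their nearness is uncertain.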

How the data were processed

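RNA was sequenced from 6 polyA libraries. Per the submitters' processing notes, the authors used TopHat 1.4.1, HTSeq and DESeq with builds mm9 and NCBIM37. The strand setting is not given in the sources used here. The 2 deposited tables hold raw counts per gene, the authors' normalized signal (counts divided by 1 size factor per library), the ratio (fold) between group means as the authors computed it, and the authors' p-values, raw and adjusted. Dex plus GW7647 has the same counts in each table. Symbols came from GENCODE M21 (GRCm38) for 32897 genes (87.45%), and positions are of that build, not the authors'.

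The deposited counts went into edgeR 4.0.16 (R 4.3.3): filterByExpr with a minimum count of 10 (14125 genes, 99.971% of counts), TMM scaling, 1 quasi-likelihood fit over all 6 libraries, and Benjamini-Hochberg adjustment over all tested genes at 0.05. The procedure was tested on simulated data in which few genes differed, in equal numbers up and down. Such data cannot test the scaling where 51.6% of tested genes were called, as with Dex against untreated. A normalized count is the raw count over its library's TMM-scaled size, multiplied by the mean size. Alternatives were DESeq2 1.42.0, other scalings and filters, the 4 libraries compared, a replicate block and each library left out, 14 fits in all. Named listed genes were the called genes among the 3 smallest p of each list and comparison, and all globins. The members and lists were chosen with earlier results of these data known. The values of 1 listed gene that this rule names are not reported here.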

Additional observations from a re-analysis of the deposited data

How the results depend on the processing

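Over 14 other fits, 265 of 294 differences of the 7 genes kept their direction and their side of the threshold, 16 lost a call, 7 gained one and 6 changed sign, none of the last called. With total count scaling Igf2bp3 was at 0.078 with Dex and 0.001 with both drugs against untreated. For GW7647 added to Dex, leaving out each library gave log2 differences of -0.013 (without Dex replicate 1) to 0.063 for Lin28b, -0.023 to 0.015 (without replicate 1 of Dex plus GW7647) for Igf2bp1, which was also above 0 without Dex replicate 2, and -0.046 to 0.051 (without Dex replicate 2) for Bcl11a. The cause of these changes was not tested. Total count scaling called 5451 genes higher and 2584 lower with Dex against untreated, and 5480 and 2719 with both drugs, against 3606 and 3677, and 3486 and 3539, with TMM.

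For GW7647 added to Dex, genes called numbered 1374, against 2085 with no filter on low counts, where 2 of the 7 genes, 1 globin regulator and 1 corepressor were called. DESeq2 called 0 of the m6A genes and 1 corepressor. Same-numbered libraries did not clearly deviate together (correlations of -0.21, 0.15 and -0.05). This gives no clear sign that the numbers pair them, and with so few libraries it cannot exclude pairing. With a replicate block, 998 genes, 1 of the 7 genes and 0 m6A genes were called in that comparison. With crossed numbers, chosen after seeing the data, 2240 genes, 2 of the 7, 1 let-7 processing gene, 2 m6A genes, 2 globin regulators and 1 corepressor were called. With the 4 libraries compared, 7 corepressors were called with Dex against untreated, against 12.

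With each library left out in turn, 2 to 4 of the 7 genes were called with Dex against untreated, and 2 to 4 with both drugs, and 6 to 11 and 5 to 15 corepressors. For GW7647 added to Dex the ranges were 548 to 1729 genes, 0 to 2 let-7 processing genes, 1 to 3 let-7 targets, 0 to 2 m6A genes and 0 to 1 corepressors. A lone library is then assumed to vary like the other groups. The lowest counts, 548 and 618, came without replicate 1 and 2 of Dex plus GW7647.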
